A study of Mus musculus with 12 samples.

Results

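The 36 genes described here encode the transporters and enzymes that carry glucose to lactate, together with the hypoxia-inducible factor subunit HIF-1α, its prolyl hydroxylases and a set of hypoxia-inducible genes. They were chosen by name, with earlier results of these data known, as 36 of the 39666 genes in a count table of airway eosinophils. All 36 were among the 18302 genes that passed a filter on low counts. The cells came from wild-type C57BL/6 mice aged 8 to 12 weeks with ovalbumin-induced allergic airway inflammation. The mice received 20 µg ovalbumin in 4 mg alum on days 0 and 7, breathed 1% ovalbumin aerosol for 40 minutes on each of days 16 to 18, and were harvested on day 19. Lung lavage was pooled over animals, and eosinophils, gated on high side scatter, CD45, CD11b and Siglec-F with CD11c and Ly6G at low or middle intensity, were sorted by surface TREM-1, an activating receptor of myeloid cells. Each of 6 lavages gave 1 TREM-1+ and 1 TREM-1- sample of total RNA, so both groups share the genotype, sensitization and challenge, and no unchallenged animals were part of the comparison.

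Glycolysis splits glucose into pyruvate in the cytosol, and lactate dehydrogenase regenerates the NAD+ that the pathway consumes. When oxygen is scarce, prolyl hydroxylases of the EGLN family stop marking HIF-1α for destruction, and the stabilized factor, paired with ARNT, raises transcription of glucose transporters, most glycolytic enzymes and its own feedback inhibitors such as EGLN3. In granulocytes, glycolysis supplies much of the ATP, and HIF-1α is known to be controlled at both the transcript and the protein level.

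Of the 36 genes, 15 were lower and 2 were higher in TREM-1+ than in TREM-1- eosinophils (edgeR quasi-likelihood test with the lavage as a block, Benjamini-Hochberg adjusted p below 0.05 over all tested genes, libraries scaled with trimmed-mean-of-M-values, or TMM, factors). That is 41.7% lower and 5.56% higher, beside 6.72% lower and 3.10% higher among all tested genes, of which 9.82% were called in all. The falls were small, and the 13 falling genes among the 25 glycolytic members ran along the pathway from the transporters Slc2a1 and Slc2a3 to the lactate exporter Slc16a3. Adpgk, which encodes an ADP-dependent glucokinase, went the other way, at 1.68-fold, and the transcript of Hif1a fell to 72.9% of its TREM-1- level. The number of falling genes changed with the scaling: with library totals alone, 4 genes were lower (Eno1, Ldha, Hif1a and Ddit4) and 4 were higher (Adpgk, Egln3, Hk3 and Egln1), and the same change of scaling moved the median log2 fold change of all tested genes by 0.13 and turned 568 higher and 1229 lower calls into 1880 and 376. Adpgk, Egln3, Eno1, Ldha, Hif1a and Ddit4 were called in the same direction under both scalings. In bulk samples, a smaller number of cells expressing a gene and less of its RNA per cell cannot be told apart.

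The 250 bases before the transcription start of these 6 genes are shown because they are the members whose call did not depend on the scaling. They are RefSeq windows on GRCm38.p6, printed 5′ to 3′ on the gene's strand, the first listed where a gene has several. Capitals mark the core of the hypoxia response element, ACGTG or GCGTG on the printed strand, or CACGT or CACGC where it lies on the other strand, and the palindrome CACGTG, which holds the core on both strands and is also the E-box bound by other factors, counts as 1 site.
Adpgk, NCBI gene 72141, chr9:59291322-59291571, plus strand: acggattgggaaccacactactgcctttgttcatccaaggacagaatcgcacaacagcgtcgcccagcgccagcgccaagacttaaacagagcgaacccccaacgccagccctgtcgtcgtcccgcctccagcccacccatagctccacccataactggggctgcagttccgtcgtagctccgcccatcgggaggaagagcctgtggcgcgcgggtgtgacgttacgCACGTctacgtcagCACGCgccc
Eno1, NCBI gene 13806, chr4:150236458-150236707, plus strand: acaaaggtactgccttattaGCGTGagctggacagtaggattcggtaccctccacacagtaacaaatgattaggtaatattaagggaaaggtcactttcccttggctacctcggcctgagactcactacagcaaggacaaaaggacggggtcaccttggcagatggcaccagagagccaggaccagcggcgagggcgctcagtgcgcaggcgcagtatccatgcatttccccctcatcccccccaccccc
Ldha, NCBI gene 16828, chr7:46845554-46845803, plus strand: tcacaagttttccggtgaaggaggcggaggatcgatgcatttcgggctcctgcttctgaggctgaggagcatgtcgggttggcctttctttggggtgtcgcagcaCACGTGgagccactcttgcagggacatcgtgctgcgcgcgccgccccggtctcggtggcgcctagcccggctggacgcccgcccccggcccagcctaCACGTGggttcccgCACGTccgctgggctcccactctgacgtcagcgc
Hif1a, NCBI gene 15251, chr12:73907617-73907866, plus strand: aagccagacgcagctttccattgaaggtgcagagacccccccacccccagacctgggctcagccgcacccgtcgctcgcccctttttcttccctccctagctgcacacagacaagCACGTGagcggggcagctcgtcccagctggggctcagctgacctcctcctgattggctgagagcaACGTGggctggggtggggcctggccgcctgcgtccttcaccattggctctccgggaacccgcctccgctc
Egln3, NCBI gene 112407, chr12:54203875-54204124, minus strand: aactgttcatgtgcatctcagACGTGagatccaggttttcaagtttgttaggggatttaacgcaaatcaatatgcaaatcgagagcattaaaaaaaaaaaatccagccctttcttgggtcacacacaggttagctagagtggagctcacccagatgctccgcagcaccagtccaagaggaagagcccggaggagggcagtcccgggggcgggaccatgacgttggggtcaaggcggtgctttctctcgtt
Ddit4, NCBI gene 74747, chr10:59951771-59952020, minus strand: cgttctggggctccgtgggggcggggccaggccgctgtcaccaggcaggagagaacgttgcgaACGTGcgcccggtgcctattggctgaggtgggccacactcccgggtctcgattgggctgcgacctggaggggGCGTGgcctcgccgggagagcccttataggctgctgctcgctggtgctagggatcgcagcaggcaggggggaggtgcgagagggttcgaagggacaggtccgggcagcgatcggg

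All 6 windows held at least 1 core. Ldha held 3, which began 145, 48 and 34 bases before the start, and Adpgk held 2, at 23 and 9 bases before it. Hif1a had cores 135 and 70 bases before its start and Ddit4 had them at 187 and 115 bases, while Eno1 and Egln3 had 1 each, at 230 and 229 bases. Windows were found for 33 of the 36 members, and 26 of them (78.8%) held a core, beside 38.6% of 27025 genes with a window and 55.0% of 10309 tested protein-coding genes. At least 2 cores were present in 48.5% of the members, 13.6% of all windows and 23.0% of those of tested protein-coding genes. The windows differed in base composition, with a median of 14 CpG dinucleotides in members, 6 in all genes and 15 in tested protein-coding genes. The core was present in 9 of the 14 lower members with a window (64.3%) and in 15 of the 17 that were not called (88.2%). The genes that rose (Adpgk, Egln3) and those that fell (Ldha, Hif1a) both held it, and a match of these letters is a description of the sequence, not evidence of binding.

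The libraries held 8626701 to 21234053 counts. In all 6 lavages the TREM-1+ library had the lower total and the larger TMM factor. Trem1 itself, which checks the sort, lay between 18.4 and 42.1 CPM (counts after scaling all libraries to one size) in TREM-1- libraries and between 73.5 and 130.7 CPM in TREM-1+ libraries. Of the 10 listed eosinophil markers, Alox15 had the largest level, at a mean of 2391 CPM over the 12 libraries. Ccr3 was at 985 and 816 CPM in TREM-1- and TREM-1+. Siglecf, whose product was part of the gate, was at 875 and 796 CPM. Epx was lower in level, at 40.1 and 42.3 CPM, and Ear1, which is also on the list of alveolar macrophage markers, was at 145.9 and 52.2 CPM. Across the list, 5 were called lower and 3 higher in TREM-1+. The 2 libraries of lavages 1 and 2 were the closest within each fraction, with a chi-square per gene of 5.68 in TREM-1- and 7.57 in TREM-1+ and at least 23.7 between any other libraries of a fraction, so results are also given for lavages 3 to 6 where their call was lost there. Nothing in the labels states whether different mice gave each lavage, so the p-values speak to the spread among these 6 pools.

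Across the 36 genes, the difference was small and spread over the pathway. The median log2 fold change was −0.13 for the members and 0.004 for all tested genes, and with library totals alone it was −0.005 for the members, beside 0.13 for all genes. There were 18 members (50%) lower in TREM-1+ in all 6 lavages, beside 8.31% of all tested genes, and 1 member (2.78%) was higher in all 6, beside 5.08%. Within single lavages the median paired log2 difference of the members was −0.18, −0.27, −0.13, −0.09, −0.07 and −0.10 from lavage 1 to lavage 6, so it was below 0 in each and lowest in lavages 1 and 2. The 25 genes of glucose uptake, glycolysis and lactate export had a median of −0.16, and 16 of them were lower in all 6 lavages. The 11 HIF and hypoxia-inducible genes had a median of −0.02, with 2 lower and 1 higher. With TMM factors, the CPM of the fractions did not overlap for Adpgk, higher in TREM-1+ (0.295% of tested genes did so). The same held for Pfkl and Pfkfb3, lower in TREM-1+ (0.656% of tested genes). For the other 33 members the 6 values of the fractions overlapped. Scaled by library totals alone, the fractions of Pfkl and Pfkfb3 overlapped too.

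**Figure D1:**
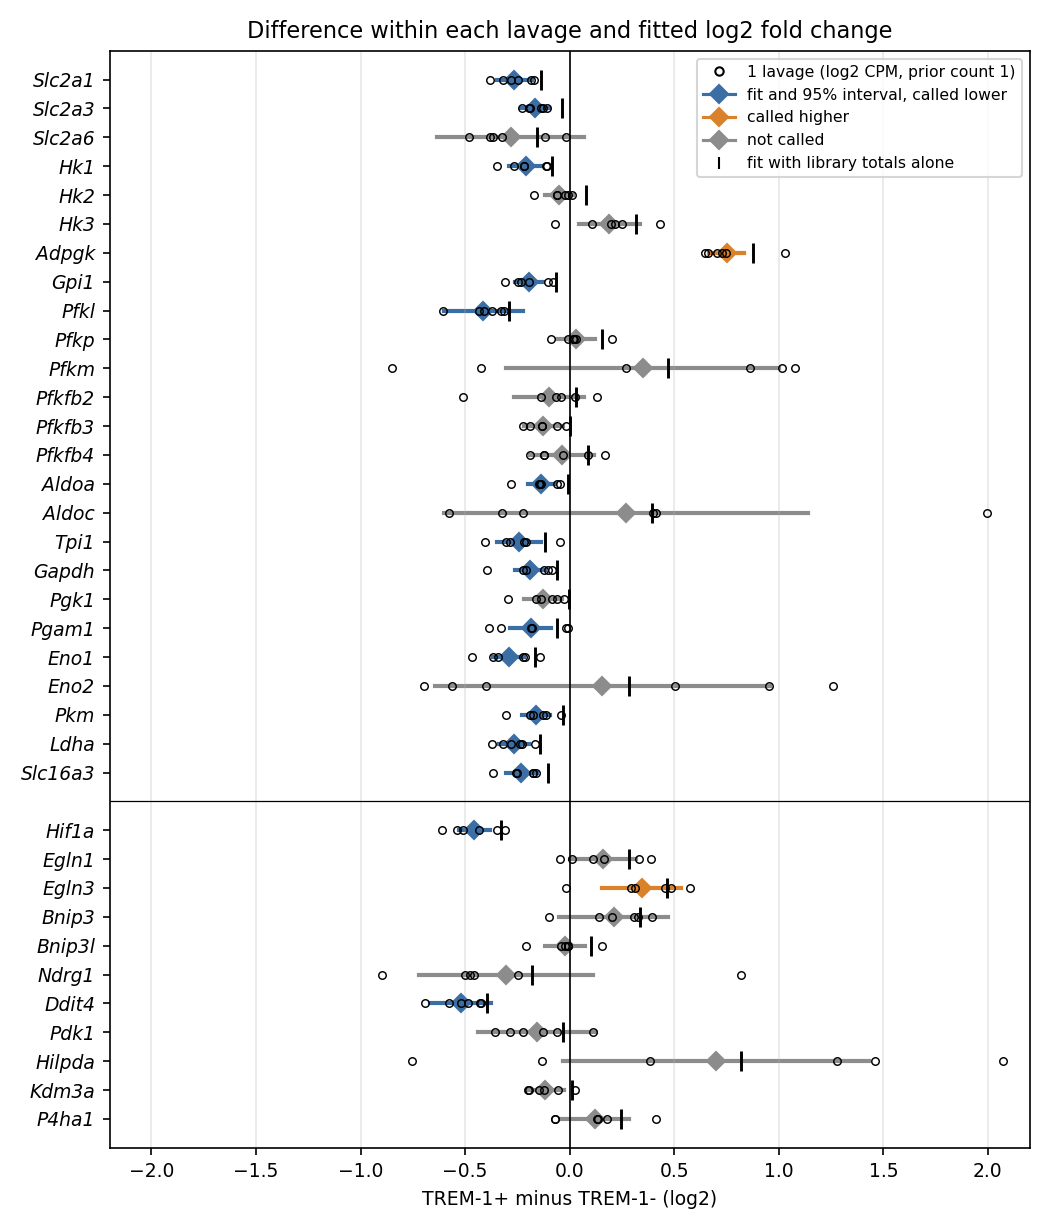
Log2 difference in CPM, TREM-1+ minus TREM-1-, of each of the 36 genes in pathway order (circles, 6 lavages), with the edgeR log2 fold change (diamond) and its 95% confidence interval (line), all with TMM factors. Most glycolytic genes lie a little left of 0, Hif1a and Ddit4 lie further left, and Adpgk lies furthest right among the called genes, and with library totals alone all genes move right by about 0.13, the members' median to −0.005 beside 0.13 for all tested genes.

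Glucose enters through transporters of the SLC2A family. Slc2a3, which encodes the high-affinity transporter GLUT3, had 328.7, 303.4, 309.7, 265.7, 327.1 and 291.6 CPM in TREM-1- libraries of lavages 1 to 6 and 304.6, 275.5, 271.5, 226.9, 299.2 and 254.5 CPM in their TREM-1+ partners. It was lower in each pair although the ranges overlapped, at a log2 fold change of −0.16 ± 0.03 (SE, edgeR adjusted p = 6.83e-04), which was −0.04 and not called with library totals alone. Slc2a1, which encodes GLUT1, fell from 126.3 ± 20.2 to 105.2 ± 17.3 CPM (SD, n = 6), by 0.26 ± 0.04 on the log2 scale (edgeR adjusted p = 1.89e-05), or −0.14 with library totals alone (adjusted p = 0.0917). Slc2a6 was scarce, at 5.04 ± 1.08 and 4.24 ± 1.42 CPM, and was not called. Per kilobase of transcript, Slc2a3 made up 65.3% of the 3 transporters' CPM in TREM-1- and 66.8% in TREM-1+ eosinophils.

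The first step phosphorylates glucose, and its enzymes differed in direction. Adpgk, whose product uses ADP in place of ATP and sits at the endoplasmic reticulum, had 188.1, 219.1, 184.7, 111.1, 187.9 and 147.7 CPM in the TREM-1- libraries and 316.3, 357.1, 292.6, 226.5, 294.3 and 244.6 CPM in the TREM-1+ libraries. Every TREM-1+ library was above every TREM-1- library. The mean rose from 173.1 ± 37.9 to 288.6 ± 47.5 CPM (SD, n = 6), a log2 fold change of 0.75 ± 0.04 (edgeR adjusted p = 3.50e-14) and 0.88 with library totals alone (adjusted p = 9.68e-11). The paired log2 differences were 0.65 to 0.75 in 5 lavages and 1.03 in lavage 4, and under each of 16 alternative settings the gene was called, at 0.70 to 0.88. An exon of Adpgk overlaps one of Bbs4 on the opposite strand by 178 bases. Bbs4 was called too (0.37, edgeR adjusted p = 0.0207) but held 12.0 and 15.5 CPM, and the sources used here do not give whether counting used strand.

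The ATP-dependent hexokinases showed no such rise with TMM factors. Hk2, the inducible form, was the most abundant of them, at 380.2 ± 59.1 CPM in TREM-1- and 366.9 ± 57.7 in TREM-1+ (SD, n = 6). Its log2 fold change was −0.05, with a 95% interval of −0.12 to 0.02. Hk1, the widely expressed form bound to mitochondria, fell from 171.9 ± 16.1 to 148.7 ± 17.2 CPM and was lower in 6 of 6 pairs (−0.21 ± 0.04, edgeR adjusted p = 2.08e-04, and −0.09, adjusted p = 0.255, with library totals alone). Hk3, a hexokinase of myeloid cells, stood at 32.1 ± 4.06 and 36.6 ± 4.39 CPM and was higher in 5 of 6 pairs. Its log2 fold change of 0.19 ± 0.07 was not called with TMM factors (edgeR adjusted p = 0.100) and was 0.31 and called with library totals alone (adjusted p = 0.00714).

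Ratios within a library are free of the scaling. Of the summed CPM per kilobase of Hk1, Hk2, Hk3 and Adpgk, Adpgk made up 35.4%, 39.8%, 39.1%, 31.1%, 40.8% and 33.4% in the TREM-1- libraries and 49.9%, 52.8%, 53.0%, 49.6%, 52.2% and 46.3% in their partners. The lowest TREM-1+ share lay above the highest TREM-1- share. The mean share went from 36.6 ± 3.90% to 50.6 ± 2.56% (SD, n = 6), a gain of 14.0 percentage points that was present in 6 of 6 pairs (exact sign-flip permutation test, two-sided, p = 0.0312, the smallest that the 64 sign patterns of 6 pairs allow). This share was chosen after the values of Adpgk had been seen. The ratio of Adpgk to Hk2 CPM moved from 0.454 to 0.790, and that of Adpgk to Hk1 from 1.00 to 1.95.

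**Figure D2:**
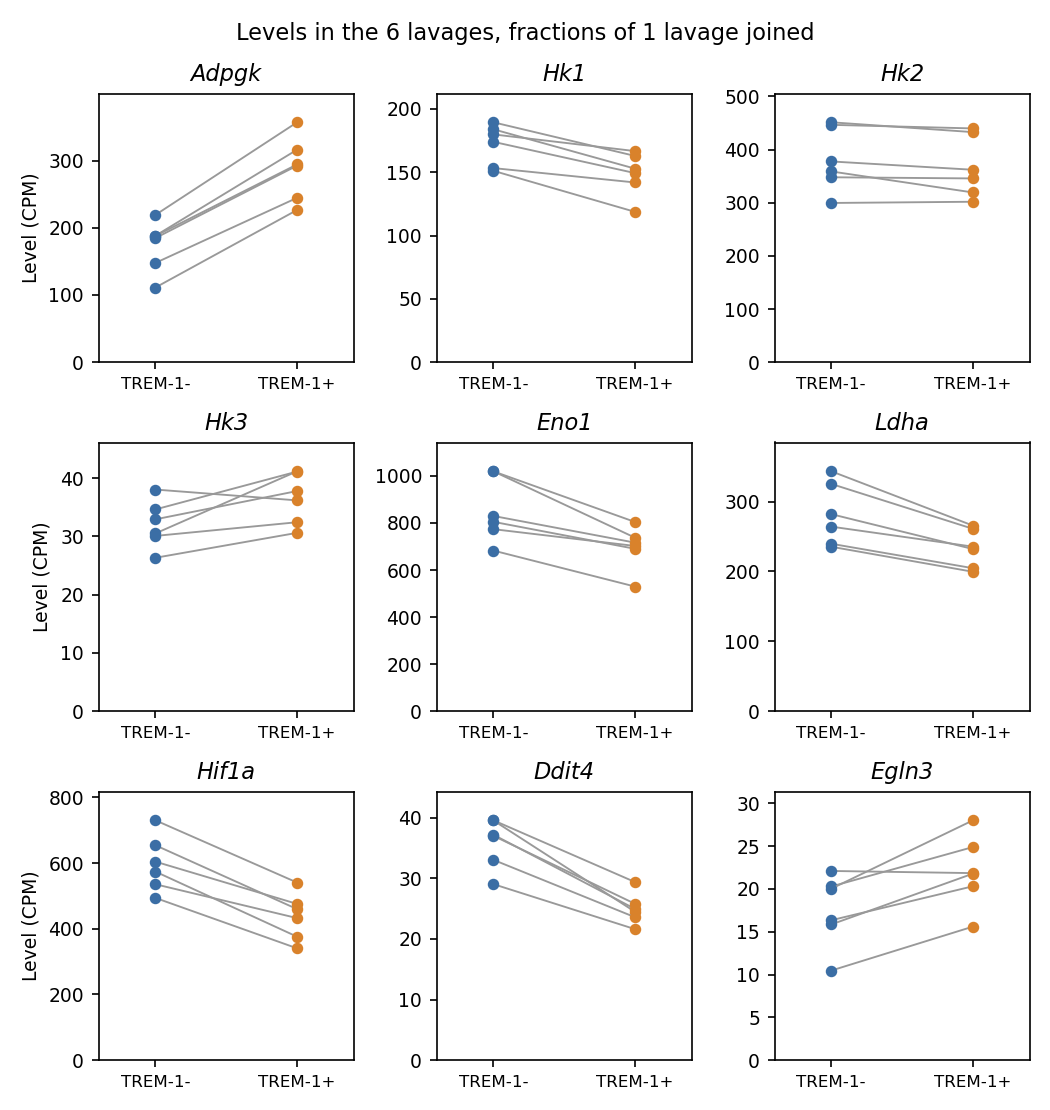
CPM of single genes (vertical axis) in the TREM-1- and TREM-1+ library of each lavage, with a line joining the 2 libraries of a lavage. The Adpgk lines all climb and its fractions do not overlap, while Hif1a, Eno1 and Ldha fall in each lavage from levels that differ between lavages.

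Gpi1, which encodes the glucose-6-phosphate isomerase, fell from 1004 ± 173 to 876.0 ± 135 CPM (SD, n = 6) and was lower in all 6 lavages, at −0.19 ± 0.03 (edgeR adjusted p = 5.90e-05), or −0.07 and not called with library totals alone. The next step, catalysed by phosphofructokinase 1, commits the sugar to glycolysis, and its subunits differed. Pfkp, the platelet-type subunit, was the main one at 94.1 ± 7.09 and 95.9 ± 7.10 CPM, with a log2 fold change of 0.03 (95% interval −0.06 to 0.12). Pfkl, the liver-type subunit, had 20.98, 18.97, 22.54, 16.79, 21.01 and 17.49 CPM in the TREM-1- libraries and 15.76, 14.64, 14.79, 13.34, 15.54 and 14.08 CPM in TREM-1+ libraries. The fractions did not overlap with TMM factors but did with library totals alone. The log2 fold change was −0.41 ± 0.09 (edgeR adjusted p = 0.00212), the lowest of the called glycolytic members, and −0.29 with library totals alone (adjusted p = 0.0579). Pfkm, the muscle-type subunit, stayed near the detection limit at 1.54 and 2.04 CPM.

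The PFKFB enzymes set the level of fructose 2,6-bisphosphate, an activator of phosphofructokinase 1. Of Pfkfb2, Pfkfb3 and Pfkfb4, 0 were called by edgeR, DESeq2 or limma, and 1, Pfkfb3, had an unadjusted edgeR p below 0.05. Pfkfb3, the inducible form with strong kinase activity, was nearly constant between TREM-1- lavages, at 86.2 to 89.0 CPM, and lay between 74.8 and 85.5 CPM in TREM-1+ libraries. These ranges, with TMM factors, did not overlap, but those with library totals alone did. The log2 fold change was −0.13 ± 0.05 with an edgeR adjusted p of 0.0849, and it was 3.76e-04 with library totals alone. Pfkfb2 and Pfkfb4 stood at 27.9 and 28.4 CPM in TREM-1- and at 26.2 and 27.7 CPM in TREM-1+ eosinophils.

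Within each of the steps with several isoforms, the composition was tested as the share of CPM per kilobase, over 14 shares, by an exact sign-flip permutation test (two-sided) over the 6 pairs. None of the 14 passed after Benjamini-Hochberg adjustment, and 4 reached the smallest unadjusted p of 0.0312 (adjusted p = 0.109). With 6 pairs, a share could pass only if many more of the 14 reached that smallest p. Shares of a step also sum to 100%, so they are not independent. The adjusted result therefore does not decide whether the composition changed. Pfkl went from 18.5 ± 1.94% to 14.2 ± 1.45% of phosphofructokinase 1 and Pfkp from 79.6 ± 2.54% to 83.2 ± 1.76% (SD, n = 6). Among Hk1, Hk2 and Hk3, Hk1 went from 33.9 ± 1.70% to 30.9 ± 2.37% and Hk3 from 8.44 ± 1.20% to 10.2 ± 1.38%. Each of these 4 shares moved the same way in 6 of 6 lavages. Aldoa made up 99.96% of Aldoa and Aldoc in TREM-1- and 99.95% in TREM-1+, and Eno1 99.89% and 99.85% of Eno1 and Eno2. These enolase shares leave out Eno3, the muscle-type enolase gene, which is not among the 36 and stood at 67.0 and 60.2 CPM.

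Per kilobase of transcript, Aldoa, Gapdh, Eno1, Pkm and Gpi1 were the most abundant members. Aldoa, which encodes the aldolase that splits the sugar, had 864 ± 172 CPM per kilobase in TREM-1- and 783 ± 132 in TREM-1+ eosinophils (SD, n = 6), and Gapdh, the NAD+-reducing dehydrogenase, 779 ± 141 and 680 ± 95.5. These leading levels lay within each other's spread, and Eno1 (422 ± 67.5 and 344 ± 45.0), Pkm (410 ± 61.5 and 366 ± 44.1) and Gpi1 (348 ± 59.9 and 304 ± 46.8) formed a second, also overlapping, tier. Ldha (155 and 128), Hif1a (127 and 92.6), Slc2a3 (76.9 and 68.7), Adpgk (69.7 and 116), Hk2 (69.0 and 66.5), Pgam1 (62.1 and 54.7) and Pgk1 (57.9 and 52.9) followed in CPM per kilobase, while Aldoc, Eno2 and Pfkm were below 1 in both fractions. In the order of levels, Adpgk thus stood beside Hk2 and Slc2a3 in TREM-1- and beside Ldha in TREM-1+ eosinophils.

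**Figure D3:**
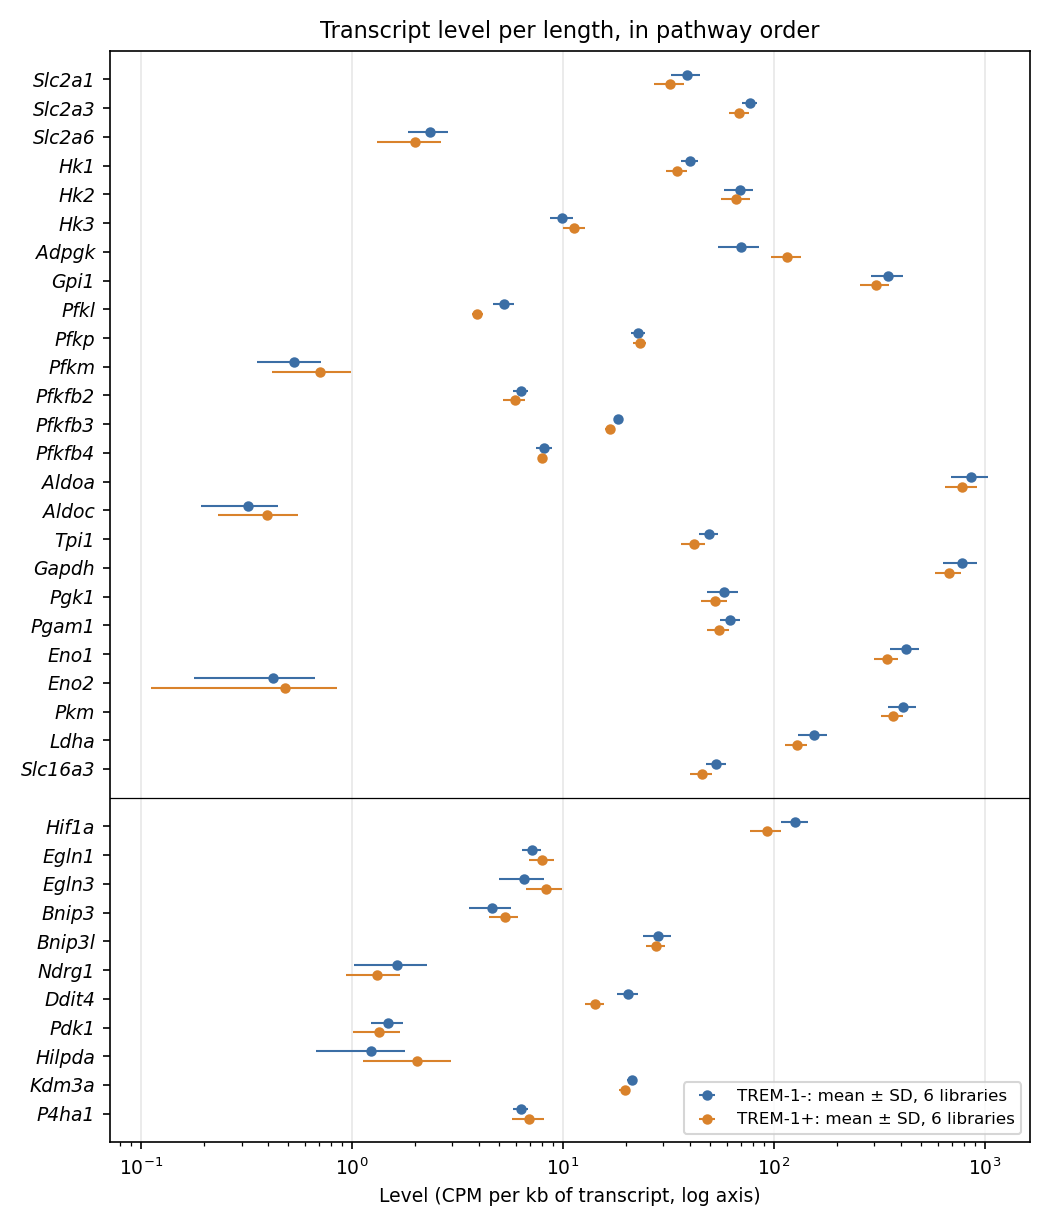
Mean CPM per kilobase of transcript (logarithmic axis) of each gene along the pathway, with the SD over 6 libraries as error bars, in TREM-1- and TREM-1+ eosinophils. Levels span from below 1 (Aldoc, Eno2, Pfkm) to 864 (Aldoa in TREM-1-), and the difference between fractions is small beside the difference between genes.

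In the lower pathway, Eno1, which encodes the main enolase, had 1020, 1020, 829.9, 682.8, 805.0 and 773.8 CPM in TREM-1- libraries of lavages 1 to 6 and 804.2, 737.4, 716.4, 529.7, 690.2 and 702.3 CPM in TREM-1+ libraries. It was lower in each lavage, and the ranges overlapped because lavages 1 and 2 were high and lavage 4 was low in both fractions. The log2 fold change was −0.29 ± 0.04 (edgeR adjusted p = 5.43e-07) and −0.16 with library totals alone (adjusted p = 0.00895). Gapdh fell from 1106 ± 200 to 965.0 ± 136 CPM (SD, n = 6; −0.19 ± 0.03, edgeR adjusted p = 2.08e-04), and Tpi1, the triose-phosphate isomerase, from 79.3 ± 8.38 to 67.2 ± 9.01 CPM (−0.24 ± 0.05, adjusted p = 0.00103). Aldoa (−0.14, edgeR adjusted p = 0.00325), the pyruvate kinase gene Pkm (−0.16, adjusted p = 8.22e-04) and the phosphoglycerate mutase gene Pgam1 (−0.19, adjusted p = 0.00886) were also lower in 6 of 6 pairs. With library totals alone none of Gapdh, Tpi1, Aldoa, Pkm and Pgam1 was called, at −0.06, −0.12, −0.01, −0.03 and −0.06. In lavages 3 to 6 the calls of Aldoa (edgeR adjusted p = 0.139), Tpi1 (0.0501), Pkm (0.0725) and Pgam1 (0.208) were lost, and that of Pgam1 was lost without lavage 2 (adjusted p = 0.0674). Pgk1, the phosphoglycerate kinase of the first ATP-yielding step, was lower in 6 of 6 pairs, at 105.7 ± 17.6 and 96.5 ± 13.6 CPM, and missed the threshold (−0.13 ± 0.04, edgeR adjusted p = 0.0620).

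Several of these genes have near-identical retrocopies, and how reads shared with them were divided is not given. Eno1b, an intronless copy of Eno1, held 2.70 CPM in TREM-1- and 1.66 in TREM-1+ libraries on average, and Aldoart1, a copy of Aldoa, had 68 counts over the 12 libraries. Aldoc and Eno2, the brain-enriched isoforms, were at 0.89 and 1.10 CPM and at 1.18 and 1.34 CPM, and neither was called.

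At the lactate end, Ldha, which encodes the A subunit of lactate dehydrogenase, had 325.2, 343.3, 235.3, 239.6, 264.1 and 282.0 CPM in the TREM-1- libraries and 260.9, 265.5, 199.5, 204.6, 235.4 and 232.0 CPM in TREM-1+ libraries. Each pair fell, with overlap between the fractions, at −0.27 ± 0.04 (SE, edgeR adjusted p = 1.17e-06) and −0.14 with library totals alone (adjusted p = 0.0424). Slc16a3, which encodes the lactate exporter MCT4, fell from 231.2 ± 24.8 to 197.2 ± 23.9 CPM (SD, n = 6; −0.23 ± 0.04, edgeR adjusted p = 1.81e-05), or −0.10 and not called with library totals alone. The ratio of Ldha to Eno1 CPM was 0.330 ± 0.0281 in TREM-1- and 0.337 ± 0.0363 in TREM-1+ eosinophils, higher in 4 of 6 pairs.

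Levels also differed between lavages. Lavages 1 and 2 held the highest and second-highest TREM-1- values in 18 of the 36 genes (50%), beside 20.6% of all tested genes, and lavage 4 held the lowest in 20 (55.6%), beside 23% of all tested genes. Aldoa, for example, was 1.70-fold higher in the highest than in the lowest TREM-1- library, and Gapdh 1.61-fold. Pfkfb3, at 1.03-fold, and Kdm3a, at 1.14-fold, varied least. In raw counts, the 36 genes together took 0.811 ± 0.121% of a TREM-1- library and 0.786 ± 0.0783% of a TREM-1+ library (SD, n = 6), lower in 4 of 6 pairs (exact sign-flip permutation test, p = 0.25).

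Hif1a, the oxygen-regulated subunit of HIF-1, had 730.0, 654.1, 493.8, 573.8, 535.3 and 604.2 CPM in TREM-1- libraries and 540.5, 459.7, 340.3, 375.7, 432.3 and 475.5 CPM in TREM-1+ libraries. It was lower in each pair, and only the TREM-1+ library of lavage 1 reached into the TREM-1- range. The mean fell from 598.5 ± 84.8 to 437.3 ± 71.9 CPM (SD, n = 6), by 0.46 ± 0.04 on the log2 scale (edgeR adjusted p = 1.04e-10), or −0.33 with library totals alone (adjusted p = 4.94e-07). Without the lavage as a block the log2 fold change was −0.45 and the call was lost (adjusted p = 0.128). The antisense gene Gm15283, which overlaps a Hif1a exon by 191 bases, held 13.0 and 10.4 CPM. Hif1a also fell relative to Eno1: their CPM ratio went from 0.706 ± 0.0916 to 0.631 ± 0.0829, lower in 6 of 6 pairs.

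Neither of the hydroxylase genes among the members was called lower. Egln3, itself hypoxia-inducible, had 20.29, 15.85, 22.10, 10.47, 20.03 and 16.34 CPM in the TREM-1- libraries and 24.90, 21.79, 21.85, 15.60, 28.02 and 20.32 CPM in TREM-1+ libraries. It was higher in 5 of 6 lavages, lavage 3 being the exception, and the ranges overlapped. The log2 fold change of 0.34 ± 0.09 passed (edgeR adjusted p = 0.0114), as did 0.47 with library totals alone (adjusted p = 0.00155). Leaving out lavage 2 (adjusted p = 0.0534) or lavage 5 (0.0517) ended the call, as did taking lavages 3 to 6 by themselves (0.146). Egln1, the main hydroxylase in normal oxygen, stood at 25.7 ± 2.73 and 28.8 ± 3.91 CPM and was not called with TMM factors (0.16, edgeR adjusted p = 0.257), but was called with library totals alone (0.28, adjusted p = 0.0308). The ratio of Egln3 to Hif1a CPM, independent of scaling, went from 0.0299 ± 0.00957 to 0.0511 ± 0.0106 and was higher in 6 of 6 pairs. This ratio sets a gene called higher over a gene called lower, so its direction follows from those calls and is no separate support for Egln3.

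Of the 8 remaining hypoxia-inducible genes, Ddit4 alone was called. It encodes REDD1, an inhibitor of mTORC1 that also answers to glucocorticoids and energy stress. Its values were 29.04, 39.55, 39.57, 37.20, 37.02 and 33.05 CPM in the TREM-1- libraries and 21.61, 24.48, 29.38, 24.94, 25.79 and 23.58 CPM in TREM-1+ libraries. Each pair fell, and the fractions overlapped only where the TREM-1+ library of lavage 3 lay just above the TREM-1- library of lavage 1. The fall was 0.52 ± 0.07 on the log2 scale (edgeR adjusted p = 2.31e-06), or −0.40 with library totals alone (adjusted p = 7.76e-04), and the gene was called under all 16 alternative settings.

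The other 7 were not called with TMM factors. The mitophagy receptor genes Bnip3 and Bnip3l stood at 8.13 and 92.3 CPM in TREM-1- and 9.34 and 90.4 CPM in TREM-1+ eosinophils. Kdm3a, a histone demethylase gene, was at 103.1 ± 5.17 and 95.2 ± 5.77 CPM (SD, n = 6; −0.12 ± 0.04, edgeR adjusted p = 0.0995). P4ha1, of collagen prolyl hydroxylase, was at 25.6 and 28.1 CPM, and Pdk1, a kinase that inhibits pyruvate dehydrogenase, at 7.73 and 7.01 CPM. Ndrg1 was at 4.75 ± 1.79 and 3.80 ± 1.09 CPM and lower in 5 of 6 pairs, though not called (−0.31, edgeR adjusted p = 0.463). In lavages 1 and 2 taken alone it was called (−0.67, adjusted p = 0.0341). Hilpda, a lipid-droplet gene, was at 1.207 ± 0.543 and 2.004 ± 0.898 CPM, and the 95% interval of its log2 fold change, −0.03 to 1.43, was wide at this depth.

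**Figure D4:**
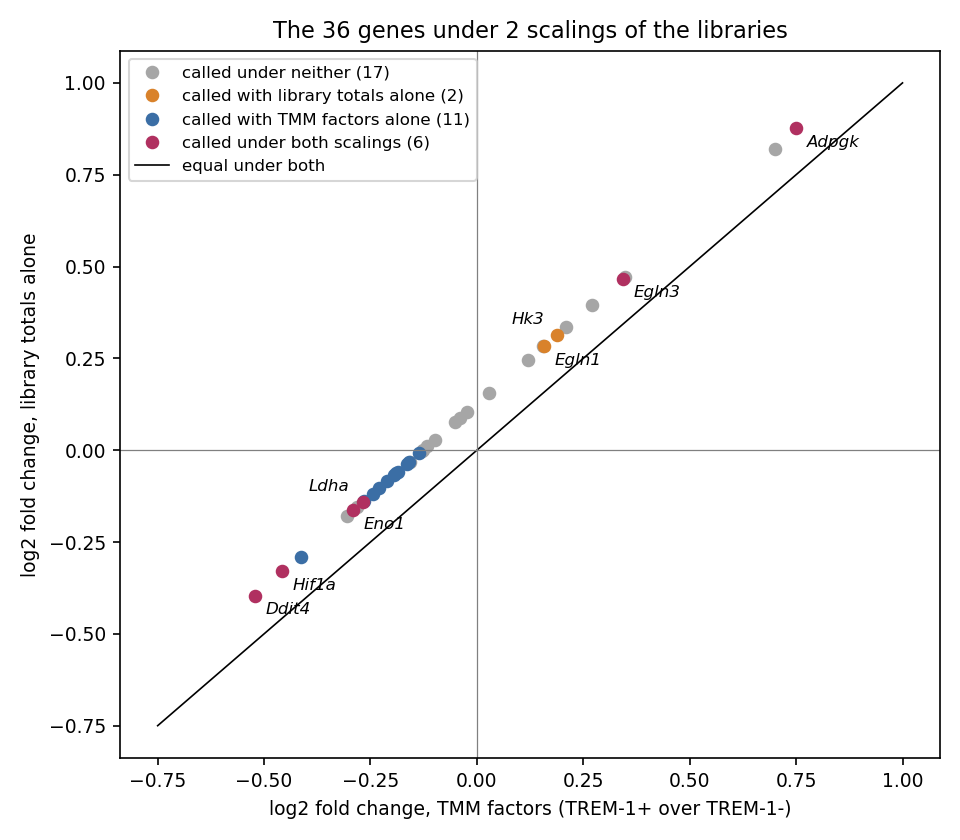
Log2 fold change of the 36 genes with TMM factors (horizontal axis) against that with library totals alone (vertical axis), coloured by the scaling under which the gene was called, with a line where both are equal. All points lie above the line by about 0.13, and Adpgk, Egln3, Eno1, Ldha, Hif1a and Ddit4 are called on both axes.

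Genes next to these in metabolism were followed through 5 further lists, of which 80 of 91 genes were tested and 5 were lower and 1 higher, or 7.5% called beside 9.82% of all tested genes and 6.25% lower beside 6.72%. Over the 5 lists together, these shares were no larger than in the table as a whole. In the pentose phosphate pathway, edgeR called 2 of 9 genes (22.2%) lower, and DESeq2 and limma called 3 each. Tkt, at 546 and 579 CPM, was higher in 6 of 6 pairs but not called (0.09, edgeR adjusted p = 0.0733). With library totals alone, Tkt (0.22, adjusted p = 5.45e-04) and G6pdx (0.18, adjusted p = 0.0153) were called higher. Taldo1, the transaldolase that links this pathway back to glycolysis, went from 444.9 ± 97.2 to 336.8 ± 68.9 CPM (SD, n = 6), lower in 6 of 6 pairs (−0.40 ± 0.04, edgeR adjusted p = 1.00e-09, and −0.27 with library totals alone). Pgd, which makes NADPH, went from 609 ± 76.9 to 549 ± 67.7 CPM (−0.15, edgeR adjusted p = 0.00344), a call that was lost with library totals alone (−0.02) and in lavages 3 to 6 (adjusted p = 0.155). Among 13 genes of pyruvate entry into mitochondria, Pdk3 was called, a pyruvate dehydrogenase kinase gene that rose from 72.4 ± 10.6 to 89.2 ± 15.5 CPM in 6 of 6 pairs (0.30 ± 0.05, edgeR adjusted p = 2.56e-05, and 0.42 with library totals alone). The list of 19 other genes of glycolysis, glycogen and lactate had 0 called by edgeR, 5 with an unadjusted p below 0.05, and 1 called by DESeq2 and 2 by limma. With library totals alone, Slc16a7, Pgm1 and Gys1 of that list were called higher, as was Pdp2 among the genes of pyruvate entry.

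The other 15 genes of the HIF pathway, such as Arnt, Vhl, Egln2 and Hif1an, had 0 called by edgeR, DESeq2 or limma and 0 with an unadjusted edgeR p below 0.05. With library totals alone, Hif1an was called higher (0.22, edgeR adjusted p = 0.0325). Arnt, the partner of HIF-1α, was at 85.7 ± 7.55 and 82.6 ± 7.37 CPM (SD, n = 6), beside the fall of Hif1a. Of 24 other hypoxia-inducible genes, 3 (12.5%) fell. Among them, Bhlhe40, a transcription factor gene, fell by 0.21 and Wsb1 by 0.19 on the log2 scale (edgeR adjusted p = 7.12e-06 and 0.00121), and neither was called with library totals alone (−0.08 and −0.06). Under that scaling Mxi1 (0.23, edgeR adjusted p = 0.00841), Plin2 (0.19, 0.0182) and Kdm4c (0.22, 0.00826) of this list were called higher, beside 1880 of all tested genes. Vegfa, a classical HIF target, was at 8.12 ± 3.09 and 6.06 ± 2.07 CPM and was not called (−0.40 ± 0.17, edgeR adjusted p = 0.155).

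Some markers of other cells differed between the fractions, beside the changes in Adpgk, Hif1a and the glycolytic genes. Of 7 tested neutrophil markers, 6 were higher in TREM-1+ (among them S100a9, 37.3 and 97.5 CPM, and S100a8, 1.70 and 8.72 CPM). The 1 lower was Retnlg, the most abundant, which went from 1603 to 1244 CPM. Cxcr2, the next in level, was at 330 and 382 CPM. The summed CPM of the 13 listed, most of it Retnlg, was 1540 to 2291 in TREM-1- and 1321 to 2216 in TREM-1+ libraries, higher in 1 of 6 pairs. The granule genes on that list differed in level: Ltf went from 9.06 to 17.1 CPM and Ngp from 25.4 to 46.8 CPM, whereas Camp had 28 counts, Mpo 3 counts and Elane 0 counts over the 12 libraries. Of 9 tested markers of T and innate lymphoid cells, 6 were higher, with sums of 8.06 to 61.8 CPM in TREM-1- and 9.44 to 119 CPM in TREM-1+ libraries. Of 6 tested alveolar macrophage markers, 3 were higher and 1 lower, and the sum over the list, 383 to 844 and 483 to 1021 CPM, was higher in 5 of 6 pairs, with Marco at most 0.513 CPM. Of 7 tested dendritic cell markers, 2 were higher, with sums of 71.6 to 91.0 and 97.7 to 128 CPM. Of 6 tested markers of monocytes and interstitial macrophages, 1 was lower and 2 higher, and their sum was higher in 1 of 6 pairs. Of 2 tested mast cell and basophil markers, 1 was higher. Of the tested markers of B and plasma cells (3), epithelium (3) and erythroid cells and platelets (2), 0 were called. Eosinophil markers summed to 4456 to 6874 and 4332 to 6568 CPM, with 5 of 10 lower and 3 higher. The part of these cell types in the differences of the 36 genes was not tested.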

How the data were processed

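RNA from 12 sorted samples, 6 TREM-1+ and 6 TREM-1-, was read as 100 bp paired ends from stranded, ribosomal-RNA-depleted libraries, per the labels' protocols. The deposited table holds the authors' estimated counts per gene, already whole numbers, for 39666 genes, and 0 of its sample columns were left unused. Per the submitters' processing notes, the build was GRCm39 and the tools included edgeR 3.42.4, kallisto 0.45.0 and R 4.3.0; the annotation and the use of strand are not given in the sources used here.

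The counts were filtered (filterByExpr, minimum count 10, minimum total 15) and fitted in R 4.3.3 with edgeR 4.0.16 (robust quasi-likelihood F test, TMM factors, lavage as a block, TREM-1+ minus TREM-1-). Standard errors came from the F statistic, and paired log2 CPM used a prior count of 1. DESeq2 1.42.0, limma 3.58.1, other scalings, no block, no filter and left-out lavages were alternatives, and the method was tested on simulated data. CPM per kilobase used the longest protein-coding GENCODE vM21 transcript. Promoter windows are RefSeq's, on GRCm38.p6, and 14 members had an exon overlapping another gene. The series' design text pairs the fractions of a lavage. Deviations from the group means correlated within lavages 1 to 6 at 0.493, 0.502, 0.127, 0.368, 0.247 and 0.236. The correlation was highest with the partner of the same number in every lavage but lavage 3, so for lavage 3 the counts did not bear out the stated pairing. The members and lists, and the rule to name all 36 members and each called gene of the lists, were chosen with earlier results of these data known.
Arnt, Vegfa, the list genes called only with library totals, and single cell-type markers were named outside that rule, after their values were seen. A called gene of the lists is not reported here.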

Additional observations from a re-analysis of the deposited data

Results flagged for a closer look

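For the 36 genes, the CPM in each fraction and the paired differences were searched for a lavage far from the other 5, by Dixon's ratio of the gap to the range at the 95% critical value. Of 108 groups of 6 values, 3 stood out, where chance marks about 1 in 20 (5.4 groups). All 3 concern lavage 4, whose TREM-1+ library had the lowest total count, 8626701, and the largest scaling factor, 1.13. The paired log2 difference of Adpgk was 1.03 in lavage 4 and 0.65 to 0.75 in the others, and without lavage 4 the log2 fold change was 0.70. Pgam1 had 86.8 CPM in the TREM-1- library of lavage 4 and 110.0 to 119.3 CPM in the other TREM-1- libraries. Eno2 had 3.39 CPM in the TREM-1+ library of lavage 4 and 0.615 to 1.29 CPM in the others. The part of depth in these values was not tested.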

How the results depend on the processing

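With edgeR, 1797 genes were called, and among the 36 members 15 lower and 2 higher. DESeq2, limma, relative-log-expression scaling, no filter on low counts and protein-coding genes alone gave the same 2 member counts; DESeq2 gave no adjusted p for Aldoc. With library totals alone the counts were 4 lower and 4 higher, and the median log2 fold change of the members was -0.00496. In the paired design the lavage is the block. With no replicate block, 83 genes were called, with 1 member lower (Ddit4) and 1 higher (Adpgk). Leaving out each lavage in turn gave 1421 to 1588 genes, 14 to 15 members lower and 1 to 2 higher, the single rise being that of Adpgk without lavage 2 or lavage 5. In lavages 3 to 6 alone there were 1168 genes, with 11 members lower and 1 higher. No called member, and no called gene of the lists named here, changed direction under a setting in which it was tested. Bbs4 was not followed through the settings, nor were the list genes called only with library totals followed through the others. The causes of the differences between settings were not tested. The 14 shares of isoenzymes could not reach 0.05 with 5 pairs (smallest p 0.0625), and those of Hk1, Hk3, Pfkl and Pfkp kept their direction without each lavage. Counting alone limits genes near 1 CPM, such as Aldoc, Eno2 and Hilpda, where 3 counts in the library of lowest total make 0.307 CPM.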
